A study of Mus musculus with 20 samples.

Results

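Endothelial cells and the mural cells around them, pericytes and smooth muscle cells, were followed in the neocortex and hippocampus through 35 marker genes, of 24421 genes in the count files. The members were taken by gene symbol from a list of vascular markers. They comprised 27 endothelial genes (6 junction proteins, 5 receptors, 7 transporters, 7 surface, secreted or enzyme genes and 2 transcription factors) and 8 mural genes (5 pericyte and 3 smooth muscle genes). The mice were 3 months old, of both sexes, on a mixed C57BL/6J and 129 background. The cTKO mice (labelled APP/APLP1/APLP2 -/-) carried floxed alleles of App, Aplp1 and Aplp2 together with Camk2a-Cre, which deletes in excitatory neurons of the postnatal forebrain. The controls (labelled wild type) were littermates with the same floxed alleles and no Cre. The driver is one of neurons, not of vascular cells. Each genotype and region gave 5 libraries, 20 in all, with 12169474 to 25331954 counts per library, so that 3 counts corresponded to 0.118 to 0.247 CPM (counts scaled to the size of the library). By the study's methods the tissue came from 5 mice per genotype, so that the 2 regions share animals. Neocortex and hippocampus were extracted with different RNA kits, so that kit and region cannot be told apart.

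Brain capillaries are lined by endothelial cells whose tight junctions, together with nutrient carriers and drug efflux pumps, form the blood-brain barrier. Pericytes share the basement membrane of these capillaries and are recruited through Pdgfrb, the receptor for the growth factor PDGF-B. Smooth muscle cells wrap arteries and arterioles and hold the contractile proteins encoded by Acta2, Tagln and Myh11, and vessels of the pia mater carry many of them.

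All 35 members passed the filter on low values (CPM above 1 in at least 5 libraries of a fit), and in every library they together held 0.0904 to 0.135% of the counts. The deletion was seen in both regions, with log2 fold changes of -1.25 to -2.10 for App, Aplp1 and Aplp2 (edgeR's quasi-likelihood test, adjusted p of 3.31e-05 or less). Per kilobase of exon in control neocortex, the highest level was 40.3 CPM per kb for the glucose carrier Slc2a1, and the lowest was 1.37 CPM per kb for Vwf, which encodes von Willebrand factor. The defining endothelial junction gene Cldn5 stood at 14.5 CPM per kb and the pericyte gene Rgs5 at 9.24 CPM per kb. No member was at 0 in any group, and both endothelial and mural cells were therefore represented in each tissue. Several members are not particular to vessels. Tjp1, at 25.8 CPM per kb, is also made by neurons and glia, and Slco1c1 and Slc16a1 are also made by glial cells. Ly6c1, Ly6a, Abcb1a and Slco1a4 have close paralogs that can share reads, and 13 of 35 members overlap another annotated gene, among them Tagln with Pcsk7, Eng with Fpgs and Pltp with Ctsa. In bulk tissue fewer cells of a type and less RNA per cell cannot be told apart, and this holds for every difference below.

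Sequence at the start of 3 members is shown because each stands for a pattern described below. Acta2 stands for the smooth muscle genes, Flt1 for the endothelial genes that were lower in the hippocampus, and Ocln for those that were higher. A window of 250 bases before a transcript start listed by RefSeq (GRCm38.p6) was at hand for 24 of 35 members. A listed start need not be the outermost one of its gene. The Flt1 window lies within the gene's RefSeq span, which reaches further upstream, and overlaps no GENCODE vM21 exon, while the Ocln window lies outside the gene. Of the Acta2 window, 217 of 250 bases fall in a first exon of GENCODE vM21, so only its motifs are printed. Each run is 5′ to 3′ on the minus strand, which is the strand of all 3 genes. The capitals mark GGAA read on either strand (printed TTCC on the other one), the core bound by ETS factors.
Flt1, chr5:147726012-147726261, minus strand: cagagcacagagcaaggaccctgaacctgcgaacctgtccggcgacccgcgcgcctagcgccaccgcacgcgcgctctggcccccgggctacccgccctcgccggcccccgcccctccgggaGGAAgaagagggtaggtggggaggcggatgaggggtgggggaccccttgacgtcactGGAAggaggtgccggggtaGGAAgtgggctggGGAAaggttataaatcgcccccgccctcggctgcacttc
Ocln, chr13:100552719-100552968, minus strand: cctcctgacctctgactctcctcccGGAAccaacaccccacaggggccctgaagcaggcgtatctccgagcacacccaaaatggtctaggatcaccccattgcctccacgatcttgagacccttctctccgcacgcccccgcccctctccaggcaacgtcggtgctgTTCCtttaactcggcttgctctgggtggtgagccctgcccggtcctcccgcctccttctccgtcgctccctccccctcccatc
In the Acta2 window the CArG box, the element bound by serum response factor, was searched with at most 1 of its 6 central letters G or C. It occurred 2 times, and the capitals are the whole box.
Acta2, chr19:34255448-34255457, minus strand: CCCTATATGG
Acta2, chr19:34255398-34255407, minus strand: CCTTGTTTGG
Of the 32851 windows of that length in the table, 0.67% held 2 or more such boxes. At least 1 was found in 8.59% of them and in 5 of the 24 members (Acta2, Ocln, Kdr, Eng and Slco1a4). The 24 members had 28 windows between them, so that counts of members here are of genes and the percentages are of windows. GGAA occurred 4 times in the Flt1 window and 2 times in the Ocln window, but it is common: 93.5% of all such windows held it, as did 22 of the 24 members. These matches are descriptions of the letters, and binding was not measured.

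In the neocortex the endothelial and mural genes of cTKO and control mice were close. None of the 35 members was called at an adjusted p under 0.05 by edgeR's quasi-likelihood test, by edgeR's likelihood ratio test or by DESeq2. Of all 13843 genes tested, 0.188% were called by the quasi-likelihood test. The shares called by the other tests are not given here. At an unadjusted p under 0.05 there was 1 member, Slc16a1, which was higher, and 5.57% of all genes were higher by that rule. Of the members 17 of 35 had a log2 fold change below 0, as did 46.9% of all genes. The median log2 fold change (cTKO minus control) was -0.02 over the 27 endothelial genes and 0.08 over the 8 mural genes, against 0.01 over all genes. Over 17 alternatives the mural median ran from -0.02 to 0.16, and the standard errors of single members ran from 0.06 to 0.22.

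The member with the smallest p was Slc16a1, which encodes the monocarboxylate carrier MCT1 for lactate and ketone bodies. Its levels in the 5 control neocortex libraries were 25.9, 22.7, 20, 22.0 and 15.5 CPM, and those in the 5 cTKO libraries were 30.0, 25.9, 37.1, 26.2 and 26.5 CPM. The groups did not overlap, although the lowest cTKO library (25.93) lay next to the highest control library (25.89). Of all genes tested in the neocortex, 2.39% did not overlap between the genotypes. The log2 fold change of Slc16a1 was 0.46 ± 0.13 (SE), with an unadjusted p of 0.00389 and an adjusted p of 0.21. By the exact permutation test (2-sided) its p was 0.00794, the smallest that 5 libraries against 5 can give. The difference was smaller in hippocampus libraries, at 0.10 ± 0.12 (adjusted p = 0.819).

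The other members with the smallest p values in the neocortex differed by less. Abcb1a, the efflux pump P-glycoprotein, was at 41.6, 41.8, 43.7, 40.0 and 36.5 CPM in control neocortex and at 37.4, 37.5, 39.2, 32.8 and 37.4 CPM in cTKO neocortex. The groups overlapped through control library 5, and the log2 fold change was -0.14 ± 0.07 (adjusted p = 0.538). Ocln, the tight junction protein occludin, was at 7.59, 9.54, 6.70, 7.71 and 7.43 CPM in control neocortex and at 6.14, 7.59, 6.56, 5.33 and 7.14 CPM in cTKO neocortex. Ocln thus had a log2 difference of -0.25 ± 0.13 (adjusted p = 0.547), and cTKO libraries 2 and 5 lay within the control range.

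Among the mural genes Pdgfrb came first. It stood at 29.4, 31.6, 30.8, 27.1 and 26.5 CPM in control neocortex and at 30.2, 33.2, 32.8, 28.9 and 44.0 CPM in cTKO neocortex. The highest value belonged to cTKO library 5. The log2 difference came to 0.22 ± 0.11 (adjusted p = 0.501), and 0.11 without that library. Tagln, the actin-binding protein transgelin of smooth muscle, was at 8.17, 6.56, 9.59, 9.67 and 13.1 CPM in control neocortex and at 9.76, 11.8, 10.7, 7.60 and 13.0 CPM in cTKO neocortex, with overlapping groups (log2 fold change 0.18 ± 0.18, adjusted p = 0.788).

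The defining markers of each cell type showed the same closeness in the neocortex. Cldn5, the main claudin of brain endothelium, was at 14.7, 24.5, 18.5, 23.7 and 20.9 CPM in control neocortex and at 19.9, 24.4, 26.2, 20.3 and 22.1 CPM in cTKO neocortex. Pecam1, the adhesion molecule CD31, was at 23.1, 24.8, 22.3, 25.7 and 26.96 CPM in control neocortex and at 21.0, 22.0, 30.2, 22.0 and 27.5 CPM in cTKO neocortex. Cdh5, the adherens junction protein VE-cadherin, was at 24.1, 27.5, 23.7, 30.1 and 26.9 CPM in control neocortex and at 24.4, 23.9, 27.6, 24.1 and 33.7 CPM in cTKO neocortex. For all 3 genes the genotypes overlapped, with log2 fold changes of 0.15, 0.00 and 0.02.

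Slc2a1, the glucose carrier GLUT1, was at 133, 111, 141, 173 and 148 CPM in control neocortex and at 119, 117, 186, 112 and 123 CPM in cTKO neocortex. Of the cTKO libraries only library 3 was high. Rgs5, a regulator of G protein signalling in pericytes, was at 45.1, 40.4, 41.7, 42.6 and 40.2 CPM in control neocortex and at 43.6, 37.6, 43.2, 41.3 and 39.5 CPM in cTKO neocortex (log2 fold change -0.03 ± 0.06). Acta2, smooth muscle alpha actin, was at 23.9, 25.5, 27.4, 29.7 and 40.7 CPM in control neocortex and at 30.7, 34.3, 27.6, 20.8 and 54.7 CPM in cTKO neocortex (log2 fold change 0.20 ± 0.22). Without cTKO library 5 the log2 fold change of Acta2 was -0.05. The remaining members of the neocortex had log2 fold changes between -0.23 (Ly6a and Mfsd2a) and 0.21 (Kdr), all with an adjusted p of 0.579 or more.

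**Figure D1:**
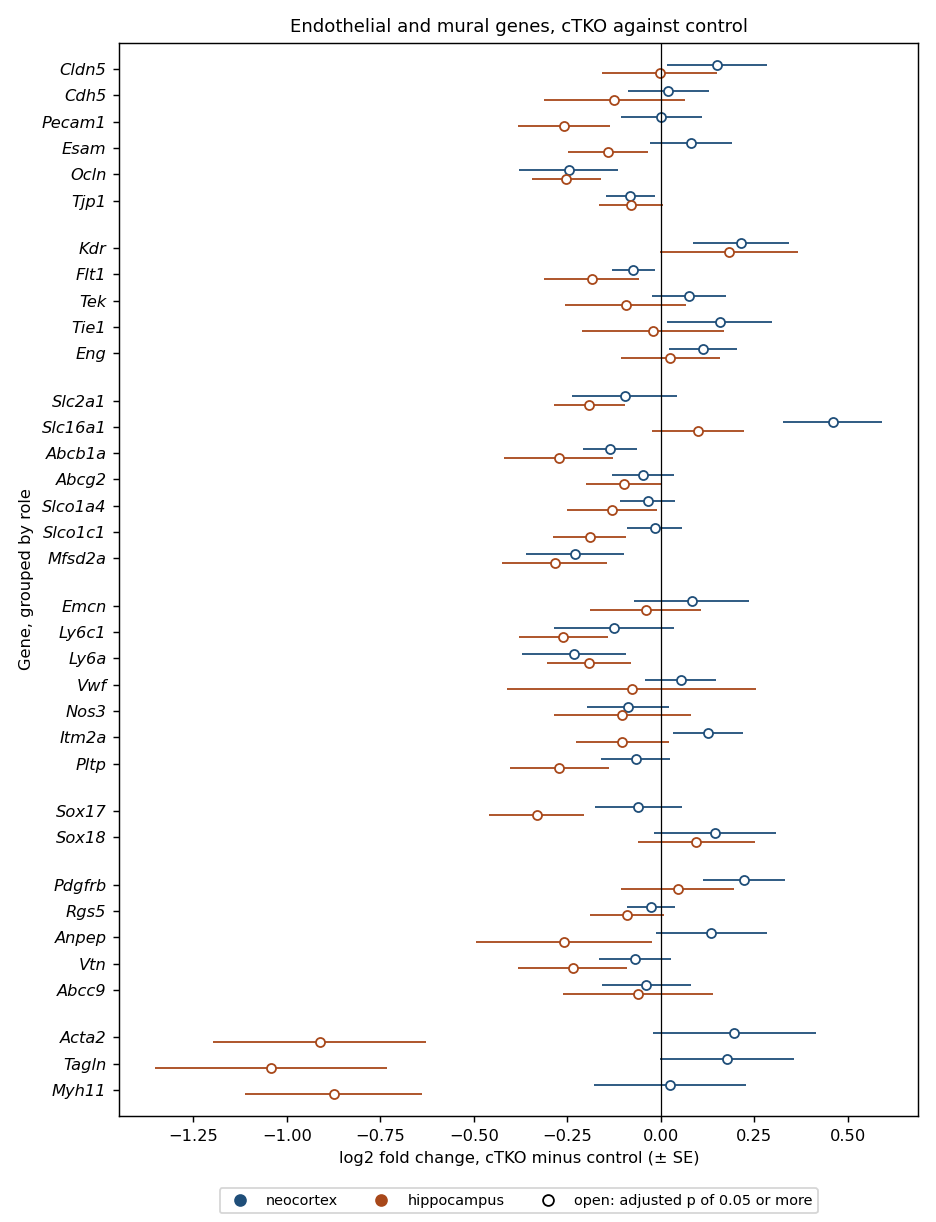
Log2 fold change of cTKO against control (x axis, ± SE) for each of the 35 genes (y axis, grouped by role) in the neocortex (blue) and hippocampus (orange), 5 libraries per genotype and region. No gene was called at an adjusted p under 0.05 in either region, so all symbols are open, and the 3 smooth muscle genes in the hippocampus stand at -0.87 to -1.04, apart from the other genes.

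In the hippocampus the endothelial genes differed little between the genotypes, though most were slightly lower in cTKO mice, and the 3 smooth muscle genes had lower means in cTKO mice. None of the 35 members was called by edgeR's quasi-likelihood test, against 0.489% of 13702 genes. DESeq2 and the likelihood ratio test each called 1 member, Myh11, and the shares of all genes called by these are not given here. At an unadjusted p under 0.05 there were 6 members, all lower in cTKO mice, and 5.88% of all genes were lower by that rule. Of the members, 30 of 35 had a log2 fold change below 0, as did 48.4% of all genes. Among the 27 endothelial genes 23 were below 0 in the hippocampus, against 14 of 27 in the neocortex. The median was -0.12 over the endothelial genes and -0.25 over the mural genes, against 0.00 over all genes.

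Acta2 was at 67.2, 55.7, 47.9, 44.7 and 16.6 CPM in the control hippocampus libraries 1 to 5 and at 18.5, 27.7, 23.9, 32.7 and 20.2 CPM in the cTKO hippocampus. Tagln was at 25.5, 27.8, 29.1, 20.6 and 6.34 CPM in control hippocampus and at 9.41, 13.2, 11.2, 11.1 and 8.11 CPM in cTKO hippocampus. Myh11, the smooth muscle myosin heavy chain, was at 38.0, 35.5, 30.1, 27.3 and 13.7 CPM in control hippocampus and at 10.8, 16.7, 14.5, 20.2 and 16.6 CPM in cTKO hippocampus. For all 3 genes control libraries 1 to 4 lay above every cTKO library, and control library 5 lay within or below the cTKO range. The log2 fold changes were -0.91 ± 0.29 for Acta2, -1.04 ± 0.31 for Tagln and -0.87 ± 0.24 for Myh11.

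Their adjusted p values were 0.223, 0.196 and 0.153, and the exact permutation test gave 0.0714, 0.0635 and 0.0397. Without control hippocampus library 5 all 3 genes were called, with log2 fold changes of -1.13, -1.28 and -1.05 and adjusted p values of 0.0199, 0.00408 and 0.0218. In that fit 0.285% of genes were called. Without cTKO hippocampus library 4, which is described below, none was called (adjusted p of 0.127 to 0.233). By the quasi-likelihood test the calls of this trio therefore rested on whether control library 5 was included.

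Control hippocampus library 5 was also low in other genes of the vessel wall and the meninges. Among the 14 other mural genes fixed as a list, 13 were tested in the hippocampus, none was called, and 6 had an unadjusted p under 0.05, of which 5 were lower and 1 higher in cTKO mice, and 5.88% of all genes were lower and 6.13% higher by that rule. Myl9, the regulatory light chain of smooth muscle myosin, was at 27.3, 24.9, 21.4, 19 and 11.7 CPM in control hippocampus and at 12.4, 15.6, 13.6, 19 and 14.2 CPM in cTKO hippocampus. Slc6a13, a GABA transporter of leptomeningeal fibroblasts, was at 20.5, 12.1, 13.7, 10.7 and 3.20 CPM in control hippocampus and at 2.43, 7.62, 7.99, 6.39 and 6.07 CPM in cTKO hippocampus. In both, control library 5 was the lowest of its group.

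Over the whole list of 9 fibroblast and meningeal markers, the mean log2 CPM was 4.70, 4.11, 4.27, 3.92 and 2.97 in the control hippocampus libraries and 3.18, 4.17, 4.19, 4.73 and 3.78 in the cTKO hippocampus. The list means of the genotypes, 3.99 ± 0.64 and 4.01 ± 0.57, were close, and the 9 markers went both ways. Of the markers 6 had a log2 fold change below 0, with Slc6a13 the lowest at -0.98, and the collagen genes Col1a1, Col1a2 and Col3a1 stood at 0.98, 0.43 and 1.72. None of the 9 markers was called. All of these collagen genes were highest in cTKO library 4, described below, which also had the highest list mean. There Col1a1 was at 57.5 CPM (other hippocampus libraries 4.14 to 23.0), Col1a2 at 70.5 (6.60 to 35.8) and Col3a1 at 73.4 (1.52 to 12.8). None of these 9 markers was at 0 in a group, and their summed level was 190 to 361 CPM in control and 170 to 352 CPM in cTKO hippocampus. The 8 choroid plexus markers summed to 74.3 to 2683 CPM in control hippocampus and to 111 to 597 CPM in cTKO hippocampus, with 8.07 to 15.9 CPM over all neocortex libraries. The part of meningeal vessels or of the dissection in the contractile genes was not tested.

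**Figure D2:**
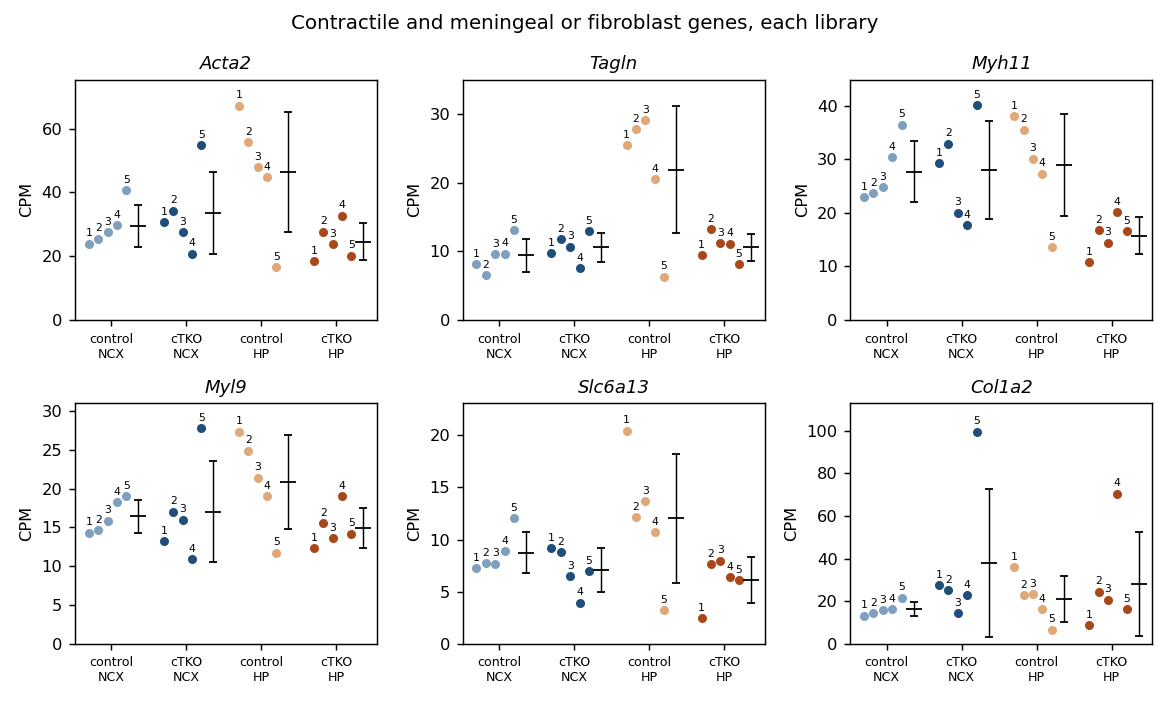
CPM (y axis) of 3 contractile members, the contractile gene Myl9, and the meningeal or fibroblast genes Slc6a13 and Col1a2 in each library (points numbered by library), by genotype and region; black bars are the mean ± SD of 5 libraries. In the hippocampus control libraries 1 to 4 lie above all cTKO libraries for Acta2, Tagln and Myh11, and control library 5 does not.

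Among the endothelial genes of the hippocampus, Ocln, Sox17 and Ly6c1 had the smallest p values. Ocln was at 15.3, 13.3, 17.0, 15.1 and 14.5 CPM in control hippocampus and at 11.5, 12.4, 11.7, 13.3 and 13.9 CPM in cTKO hippocampus. The groups overlapped through control library 2 and cTKO libraries 4 and 5 (log2 fold change -0.25 ± 0.09, adjusted p = 0.299). The difference was of the same size in the neocortex, at -0.25.

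Sox17, a transcription factor of arterial endothelium, was at 5.23, 5.95, 5.24, 4.89 and 5.50 CPM in control hippocampus and at 3.90, 4.44, 3.62, 4.78 and 4.50 CPM in cTKO hippocampus. It was the only member whose genotypes did not overlap in the hippocampus, where 3.01% of all genes did not overlap. Its log2 fold change was -0.33 ± 0.13 (adjusted p = 0.323), and the exact permutation p was 0.00794. Over the 18 alternative fits the log2 fold change of Sox17 ran from -0.39 to -0.28, and its adjusted p was never under 0.176. Its neocortical log2 difference was -0.06 ± 0.12.

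Ly6c1, a surface protein abundant on brain endothelium, was at 25.7, 36.1, 26.98, 31.0 and 31.1 CPM in control hippocampus and at 23.0, 20.4, 30.3, 23.8 and 28.0 CPM in cTKO hippocampus, with overlapping groups (log2 fold change -0.26 ± 0.12, adjusted p = 0.407). Abcb1a was at 34.4, 39.0, 27.7, 28.4 and 26.2 CPM in control hippocampus and at 21.3, 19.5, 28.2, 31.1 and 28.3 CPM in cTKO hippocampus, and Slc2a1 at 126, 110, 97.8, 135 and 111 CPM and at 103, 84.7, 115, 96.7 and 107 CPM. Both overlapped (log2 fold changes of -0.27 and -0.19).

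The junction markers Cldn5, Pecam1 and Cdh5 overlapped between the genotypes in the hippocampus too. Cldn5 was at 21.7, 32.0, 17.0, 20.6 and 17.9 CPM in control hippocampus and at 24.4, 21.0, 19.7, 23.7 and 19.9 CPM in cTKO hippocampus. Pecam1 was at 25.1, 26.0, 19.5, 20.9 and 17.8 CPM in control hippocampus and at 17.6, 14.9, 18.9, 21.3 and 18.4 CPM in cTKO hippocampus. Cdh5 was at 25.6, 23.9, 16.9, 17.8 and 15.0 CPM in control hippocampus and at 13.7, 14.5, 18.2, 26.0 and 18.4 CPM in cTKO hippocampus. In all of these, control libraries 1 and 2 were the highest of their group. The log2 fold changes were 0.00, -0.26 and -0.12.

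Of the pericyte genes, Pdgfrb was at 29.1, 31.0, 26.2, 25.0 and 25.0 CPM in control hippocampus and at 25.9, 21.6, 28.0, 40.9 and 23.9 CPM in cTKO hippocampus. Rgs5 was at 47.2, 51.3, 51.6, 51.6 and 45.8 CPM in control hippocampus and at 47.9, 34.4, 51.7, 46.6 and 51.1 CPM in cTKO hippocampus. The 5 pericyte genes had log2 fold changes between -0.26 (Anpep, the aminopeptidase CD13) and 0.05 (Pdgfrb). The remaining endothelial members had log2 fold changes between -0.28 (Mfsd2a, a lipid carrier of the barrier) and 0.18 (Kdr, the VEGF receptor VEGFR2).

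Whether the genotype difference itself differed between the regions was tested by the interaction of region and genotype. No member was called by edgeR's quasi-likelihood test, DESeq2 or the likelihood ratio test. The quasi-likelihood test called 0.0564% of 14192 genes, and the shares called by the other tests are not given here. The members with an unadjusted p under 0.05 were the 3 smooth muscle genes, at -1.10 ± 0.39 for Acta2, -1.21 ± 0.39 for Tagln and -0.89 ± 0.34 for Myh11, and 1.69% of all genes were lower by that rule. Their adjusted p values were 0.93, 0.709 and 0.9999. Without control hippocampus library 5 Tagln was called (log2 difference -1.45, adjusted p = 0.018), and in that fit 0.0705% of genes were called.

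**Figure D3:**
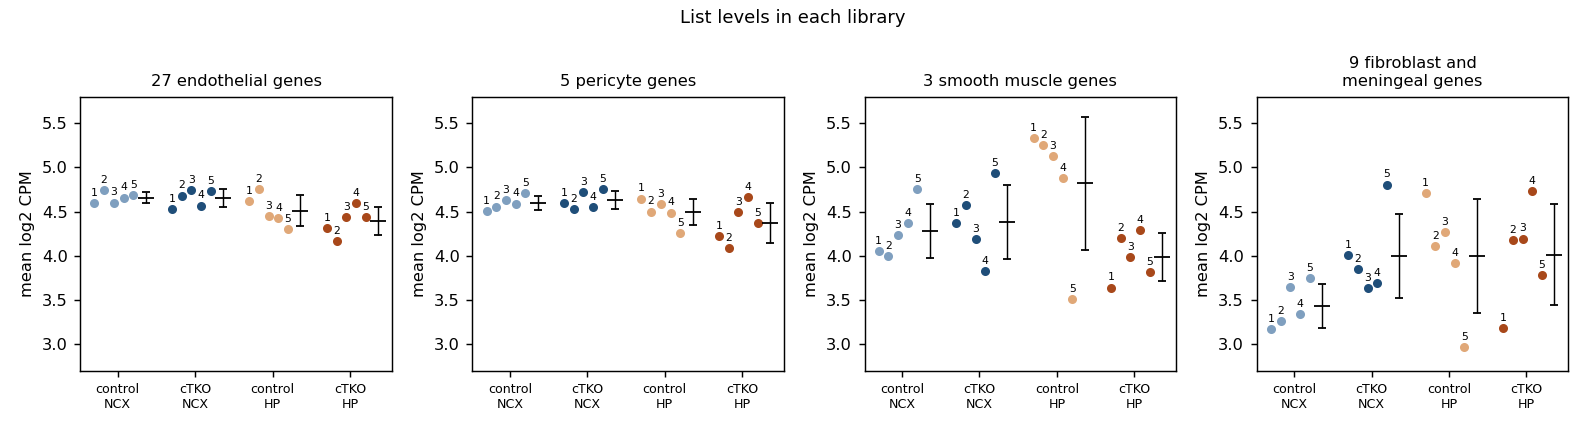
Mean log2 CPM (y axis) over the 27 endothelial, 5 pericyte and 3 smooth muscle members and over 9 fibroblast and meningeal markers in each library (points numbered by library), with the mean ± SD of 5 libraries as black bars. The endothelial mean lies between 4.17 and 4.75 in every library, and the smooth muscle mean of control hippocampus runs from 3.51 in library 5 to 5.33 in library 1.

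Summed up per library, the mean log2 CPM over the 27 endothelial genes was 4.66 ± 0.06 (SD, n = 5) in control neocortex and 4.65 ± 0.10 in cTKO neocortex. It was 4.51 ± 0.18 in control hippocampus and 4.39 ± 0.16 in cTKO hippocampus. Over the 8 mural genes it was 4.48 ± 0.16 and 4.54 ± 0.19 in the neocortex and 4.62 ± 0.37 and 4.22 ± 0.20 in the hippocampus. The neocortical genotypes thus differed by less than 1 SD in both lists. The hippocampal genotypes did so over the endothelial genes (-0.12) but not over the mural genes (-0.39). In the hippocampus cTKO library 2 was the lowest of its group for 16 of 27 endothelial genes, and cTKO library 4 was the highest for 16 of them. In control hippocampus library 2 was the highest for 17 of 27, and library 5 the lowest for 10.

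A pair of cTKO libraries, library 5 of the neocortex and library 4 of the hippocampus, also held transcripts of embryonic globins. Hbb-y, an embryonic beta globin, was at 195 and 120 CPM in them and at 0.812 CPM or less in the other 18 libraries. The members that were the highest of their region in both of these libraries numbered 5 of 35, and 7.26% of the 19901 genes with a count did so. They were Cdh5, Kdr, Emcn, the endothelial receptor Tie1 and Pdgfrb. Pdgfrb was at 44.0 CPM in the neocortex library, against 26.5 to 33.2 CPM in the other neocortex libraries, and at 40.9 CPM in the hippocampus library, against 21.6 to 31.0 CPM in the others. Ephb4, a receptor of veins, and Notch3, the receptor of mural cells, were higher there too, with 28.0 CPM of Ephb4 against at most 9.59 CPM and 40.9 CPM of Notch3 against at most 24.6 CPM in the neocortex. The collagen gene Col3a1 reached 108 and 73.4 CPM there, against at most 12.8 CPM elsewhere. Without these libraries no member was called in the neocortex or hippocampus, and the endothelial genes had a median log2 difference of -0.03 (neocortex) and -0.20 (hippocampus).

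Among genes that signal to or through vessels, 1 of 28 tested was called between the genotypes in the neocortex and none in the hippocampus. Of all genes, 0.188% and 0.489% were called. Wnt7b, which encodes a ligand by which neural cells act on brain endothelium, was higher in cTKO neocortex. It was at 34.9, 31.6, 32.4, 32.6 and 31.7 CPM in control neocortex and at 53.3, 43.1, 47.4, 43.2 and 39.7 CPM in cTKO neocortex. The groups did not overlap (log2 fold change 0.48 ± 0.08, adjusted p = 0.0326). When each library was left out in turn Wnt7b was called in 3 of 10 fits (adjusted p of 0.00608 to 0.113), and over all 17 alternatives it was called in 9, with a log2 fold change of 0.42 to 0.52. In the hippocampus it was at 55.5, 61.1, 48.9, 56.7 and 53.8 CPM in controls and at 101, 64.6, 70.6, 66.4 and 65.5 CPM in cTKO mice, again without overlap (log2 fold change 0.42 ± 0.12, adjusted p = 0.163). Of the 28 such genes tested, 3 did not overlap between the genotypes in the neocortex and 2 in the hippocampus. Of all genes, 2.39% and 3.01% did not overlap.

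Of this list of 30 vascular ligands and signalling partners, 28 were tested in each region. In the neocortex 27 did not pass the test and in the hippocampus none passed, with 7 and 6 at an unadjusted p under 0.05. All 7 in the neocortex were higher in cTKO mice, and of the 6 in the hippocampus 2 were higher and 4 lower. By that rule 10.4% of all genes passed in the neocortex, where 5.57% of all genes were higher. In the hippocampus 5.88% of all genes were lower and 6.13% higher. None of the 25 other endothelial genes was called between the genotypes in either region by edgeR's quasi-likelihood test, with 4 and 2 at an unadjusted p under 0.05. Of 16 genes of vessel segments and activation 13 were tested, with none called and 2 at an unadjusted p under 0.05 in each region. The other mural genes had 12 tested in the neocortex, with none called and 2 by the unadjusted rule. Among marker lists of brain cells and regions, Wfs1 was called in the neocortex (log2 fold change 0.94, adjusted p = 0.0307) and Lamp5 in the hippocampus (-0.52, adjusted p = 0.0204), both genes of neurons.

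Calls among the members lay mostly between the regions. The regions share mice, and the tests do not use this, except where a block is named. In control mice 19 of 35 members (54.3%) were called between hippocampus and neocortex, 6 higher and 13 lower in the hippocampus, where 59.1% of 13832 genes were called, so that the share of members was near that of all genes. The direction was uneven among the endothelial genes: 12 of 27 were lower and 3 higher, while 29.2% of all genes were lower and 29.8% higher. Their median log2 difference (hippocampus minus neocortex) was -0.25, against 0.01 over all genes. Over a list of 25 other endothelial genes the median was 0.004 in controls, with 13 genes above 0 and 12 below. In cTKO mice the median of that list was -0.22. Of the 8 mural genes 3 were higher and 1 lower, with a median of 0.09 that ran from -0.02 to 0.26 over 18 alternatives.

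Of the 5 receptors 4 were lower in control hippocampus. Flt1, the VEGF receptor VEGFR1 whose sequence is printed above, was at 84.1, 95.2, 86.9, 92.7 and 90.6 CPM in control neocortex and at 61.0, 65.5, 50.2, 55.3 and 58.1 CPM in control hippocampus. Every hippocampus library lay below every neocortex library (log2 difference -0.64 ± 0.07, adjusted p = 1.02e-06). Of the 35 members 8 did not overlap between the regions in controls, where 44.0% of all genes did not overlap. Eng, the TGF-beta co-receptor endoglin, was at 31.3, 31.2, 31.2, 29.5 and 37.1 CPM in control neocortex and at 22.3, 29.1, 21.4, 18.1 and 19.1 CPM in control hippocampus, also without overlap (log2 difference -0.54 ± 0.11, adjusted p = 0.000734). The angiopoietin receptor Tek and its partner Tie1 were lower as well, at -0.35 and -0.36. With each library left out in turn, Tek kept its call in 7 of 10 fits (adjusted p up to 0.0607, lost without hippocampus library 4 or 5 or neocortex library 2). Tie1 kept its call in 3 of 10 fits (adjusted p up to 0.0907), those without hippocampus library 1 or 2 or neocortex library 3. Kdr stood at -0.19 and was not called.

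Sox17 was at 7.96, 9.12, 9.42, 6.93 and 8.41 CPM in control neocortex and at 5.23, 5.95, 5.24, 4.89 and 5.50 CPM in control hippocampus, again without overlap (log2 difference -0.64 ± 0.11, adjusted p = 0.000134). Nos3, the endothelial nitric oxide synthase, was lower by the same measure (-0.58 ± 0.17, adjusted p = 0.00754), while Sox18 at -0.33 and Vwf at -0.50 were not called.

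The junction genes went both ways. Ocln was at 7.59, 9.54, 6.70, 7.71 and 7.43 CPM in control neocortex and at the higher levels of 13.3 to 17.0 CPM given above in control hippocampus. Its log2 difference of 0.94 ± 0.10 (adjusted p = 1.77e-06) was opposite to that of Tjp1, the scaffold protein ZO-1. Tjp1 was at 200, 211, 196, 198 and 203 CPM in control neocortex and at 173, 167, 160, 167 and 185 CPM in control hippocampus (log2 difference -0.25 ± 0.05, adjusted p = 0.000411). Neither gene's groups overlapped. Cdh5 and Esam were lower in the hippocampus, at -0.42 and -0.28. Cldn5 at 0.09 ± 0.17 and Pecam1 at -0.17 ± 0.10 were not called, so that they did not share the lower calls of Cdh5, Esam and Tjp1.

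The transporters were split in the same way. Abcb1a at -0.39, the organic anion carrier Slco1a4 at -0.33 and Slc2a1 at -0.29 were lower in control hippocampus. Slc2a1 kept its call in 6 of 10 fits with 1 library left out (adjusted p up to 0.0762, lost without hippocampus library 2 or 3 or neocortex library 4 or 5). Slc16a1 was higher, at 41.5, 36.6, 30.6, 27.6 and 28.6 CPM against 15.5 to 25.9 CPM in control neocortex (log2 difference 0.62 ± 0.13, adjusted p = 0.000836). Abcg2, the thyroid hormone carrier Slco1c1 and Mfsd2a stood between 0.13 and 0.21 and were not called. Of the surface, secreted and enzyme genes Itm2a was higher (0.54 ± 0.12, adjusted p = 0.00111), and Emcn, Ly6c1, Ly6a and Pltp lay between -0.14 and 0.01 without a call. Per kilobase, Itm2a moved from 24.1 CPM per kb, the fourth level of the members in control neocortex, to 35.1 CPM per kb, the highest in control hippocampus, next to 34.8 CPM per kb for Vtn and 33.1 CPM per kb for Slc2a1.

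Among the mural genes of control mice, Rgs5 was higher in the hippocampus. It ranged from 45.8 to 51.6 CPM there and from 40.2 to 45.1 CPM in neocortex libraries (log2 difference 0.23 ± 0.06, adjusted p = 0.0023). Abcc9, the sulfonylurea receptor SUR2 of pericytes, was lower, at 13.3, 12.8, 16.1, 13.7 and 15.4 CPM in control neocortex and 8.89, 8.48, 10.9, 9.35 and 13.2 CPM in control hippocampus (log2 difference -0.49 ± 0.12, adjusted p = 0.00248). The pericyte genes therefore went in opposite directions, and Pdgfrb, Vtn (vitronectin) and Anpep were not called, at -0.10, 0.12 and -0.20.

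Tagln was higher in control hippocampus (log2 difference 1.23 ± 0.30, adjusted p = 0.00266) in 4 of 5 libraries, while hippocampus library 5 at 6.34 CPM lay below the lowest neocortex library at 6.56 CPM. Acta2 was at 0.66 ± 0.26 (adjusted p = 0.0405), a call lost when replicate number was taken as a block (adjusted p = 0.066), with DESeq2 (adjusted p = 0.0933) and when any control library but library 5 of either region was left out. Myh11 was at 0.07 ± 0.21. With the block, 22 of 35 members were called, with Slco1c1, Mfsd2a, Vwf and Sox18 added and Acta2 lost. The 59.1% of all genes belongs to the fit without the block, and the share with the block is not given here.

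**Figure D4:**
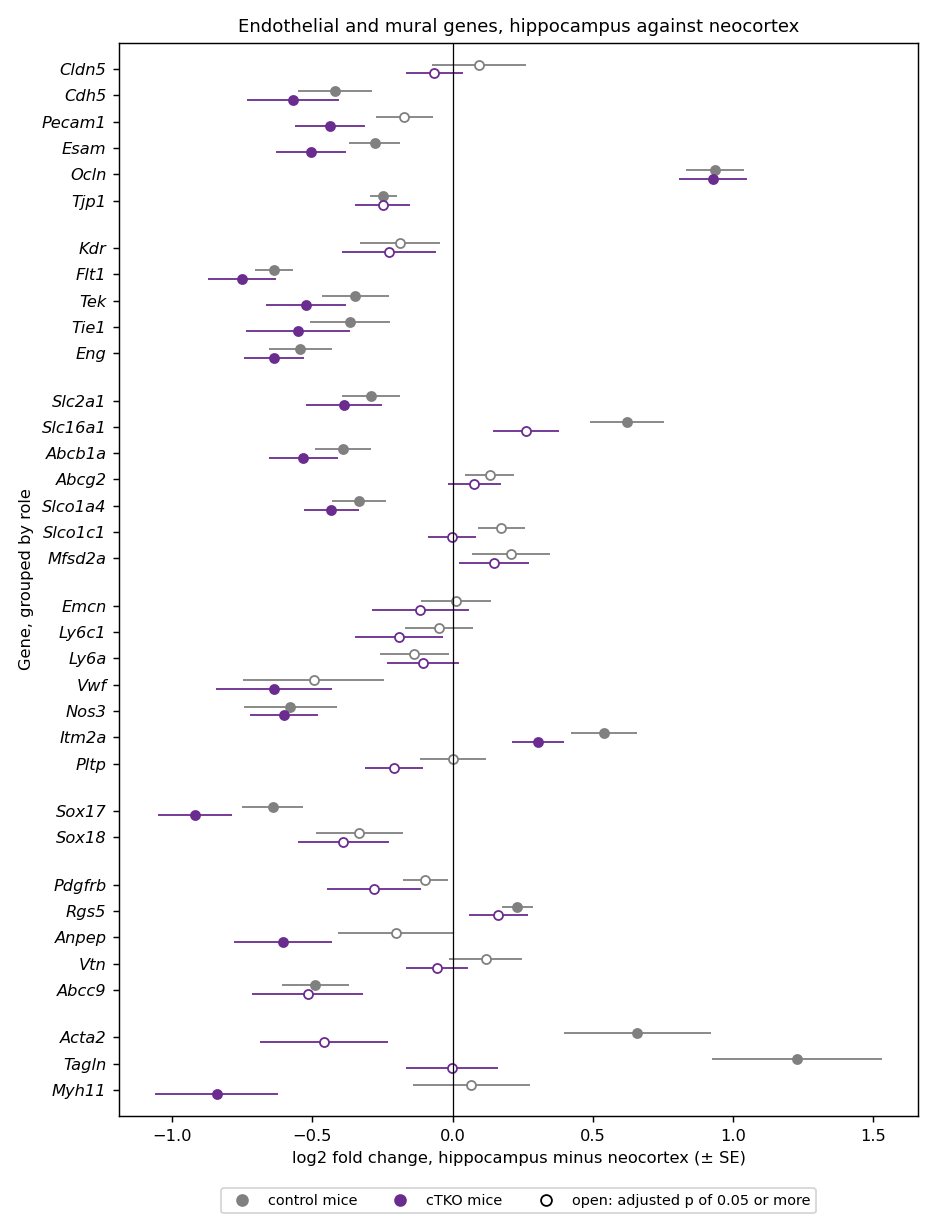
Log2 difference of hippocampus against neocortex (x axis, ± SE) for each of the 35 genes (y axis, grouped by role) in control mice (grey) and cTKO mice (purple), 5 libraries per genotype and region; filled symbols had an adjusted p under 0.05. The endothelial receptors all lie left of 0 in both genotypes and Ocln lies at 0.94 and 0.93, while Acta2 lies on opposite sides of 0.

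The cTKO mice gave a separate set of 10 libraries for the same contrast. There 17 of 35 members were called (48.6%), 2 higher and 15 lower in the hippocampus, against 41.3% of 13846 genes (20.2% higher and 21.1% lower). Of the 27 endothelial genes 13 were lower and 2 higher, with a median of -0.39, and of the 8 mural genes 2 were lower. Both genotypes called the same 11 endothelial genes lower (Cdh5, Esam, Flt1, Tek, Tie1, Eng, Slc2a1, Abcb1a, Slco1a4, Nos3 and Sox17) and the same 2 higher (Ocln and Itm2a). These were 13 of 35 members, and 38.7% of the 13703 genes tested in both were called in the same direction, so that the shares were near each other. As a share of calls, the 13 are 68.4% of the 19 in controls and 76.5% of the 17 in cTKO mice. Of all genes, 5309 were called in both in the same direction, beside 8169 called in controls and 5716 in cTKO mice. The share of cTKO calls repeated in controls was thus lower among the members than over all genes. For control calls repeated in cTKO mice the shares were near each other. Of the 13 genes, 10 were called in every fit with 1 library left out in both genotypes, and Tek, Tie1 and Slc2a1 were not. In cTKO mice Tie1 was called in 3 of 10 such fits (adjusted p up to 0.0726, called without hippocampus library 4 or neocortex library 1 or 3). Slc2a1 was called in 6 (adjusted p up to 0.0877, lost without hippocampus library 1, 2, 4 or 5). No member was called in opposite directions, and 0.0073% of genes were.

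In cTKO mice Flt1 was at 84.2, 90.6, 81.1, 88.4 and 80.4 CPM in the neocortex and at 47.4, 35.2, 56.8, 60.2 and 54.6 CPM in the hippocampus (log2 difference -0.75 ± 0.12, adjusted p = 0.000366). Sox17 was at 8.31, 8.86, 7.56, 6.91 and 8.19 CPM and at 3.62 to 4.78 CPM (-0.92 ± 0.13, adjusted p = 0.000143). Ocln was at 5.33 to 7.59 CPM and at 11.5 to 13.9 CPM (0.93 ± 0.12, adjusted p = 6.80e-05). In each of these genes the regions did not overlap in either genotype, and in cTKO mice 28.6% of all genes did not overlap.

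Of the calls in 1 genotype alone, Pecam1 at -0.44, Vwf at -0.64, Anpep at -0.61 and Myh11 at -0.84 were lower in cTKO hippocampus. Vwf kept its call in 6 of 10 fits with 1 library left out (adjusted p up to 0.0608, lost without hippocampus library 1, 2 or 5 or neocortex library 5). Slc16a1, Tjp1, Rgs5, Abcc9, Acta2 and Tagln were called in controls alone. For Slc16a1 the difference was 0.62 in controls and 0.26 in cTKO mice, for Abcc9 -0.49 and -0.52, and for Tjp1 -0.25 and -0.25. None of these was called as an interaction. Among the 35 members the smooth muscle genes had the largest interaction terms, with Acta2 at 0.66 and -0.46, Tagln at 1.23 and 0.00 and Myh11 at 0.07 and -0.84, as tested above. Without the cTKO libraries that held embryonic globins, 17 members were again called, with Pdgfrb added (log2 difference -0.35, adjusted p = 0.019) and Slc2a1 lost (adjusted p = 0.0693). The share of all genes called in that fit is not given here.

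**Figure D5:**
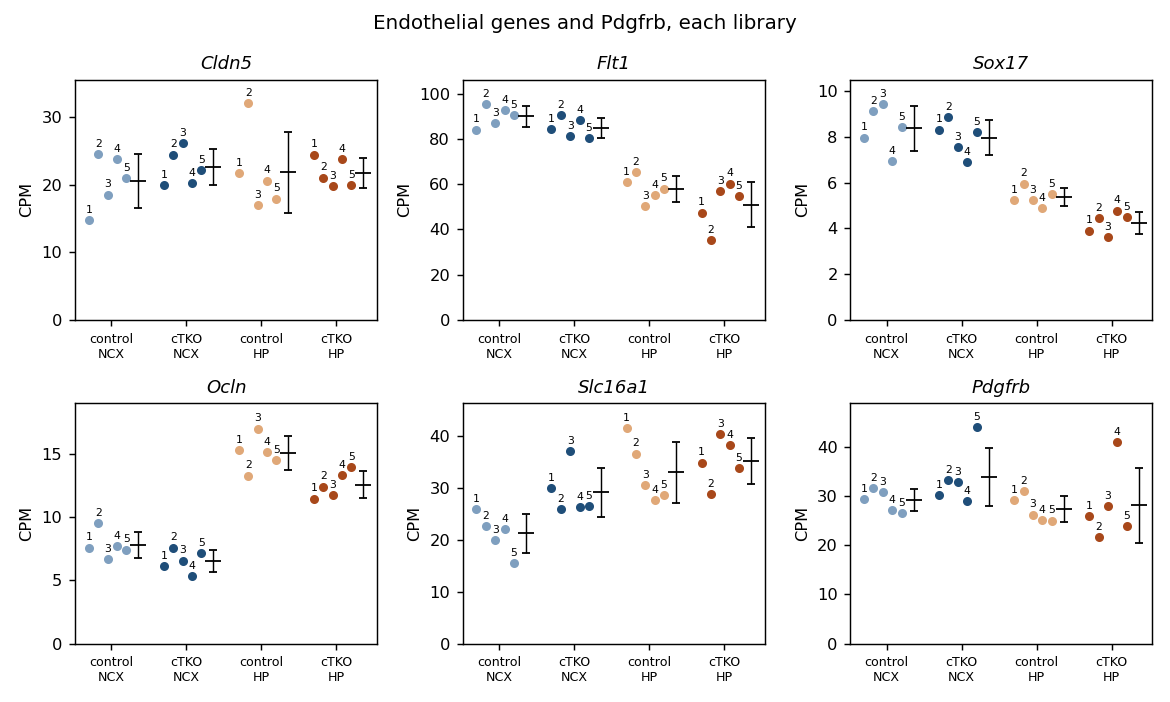
CPM (y axis) of 5 endothelial genes and Pdgfrb in each library (points numbered by library), by genotype and region; black bars are the mean ± SD of 5 libraries. Flt1 and Sox17 are lower and Ocln higher in the hippocampus of both genotypes, Cldn5 overlaps in all groups, and Pdgfrb is highest in cTKO neocortex library 5 (44.0 CPM) and cTKO hippocampus library 4 (40.9 CPM).

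The wider vascular lists held calls in both directions between the regions of control mice, where 29.8% of all genes were higher and 29.2% lower. Of the 28 vascular ligands and signalling partners tested, 11 were higher and 8 lower in the hippocampus, and the ones with the smallest p were the co-receptors Nrp1 (log2 difference 1.81) and Nrp2 (0.98), which neurons also express. Of 25 other endothelial genes 5 were higher and 8 lower, led by the zinc carrier Slc39a10 (-0.95) and by Ramp2 (0.90), the partner of the adrenomedullin receptor. Of the 13 segment and activation genes tested 2 were higher and 3 lower, led by Ackr1 (-0.92), which overlaps the neuronal gene Cadm3, and the arterial ligand Efnb2 (-0.74). Of the 13 other mural genes tested 3 were higher and 1 lower, led by Cald1 (0.80) and Cspg4 (-0.29), which encodes the proteoglycan NG2 and is also made by oligodendrocyte precursors.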

How the data were processed

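Poly(A) RNA of 20 libraries was sequenced, and the authors aligned reads to mm10 with STAR 2.5.4a and deposited raw HTSeq counts per gene. HTSeq's version and strand setting are not given in the sources used here. Libraries were grouped by their GEO titles. From the counts, edgeR 4.0.16 (R 4.3.3) fitted TMM-normalized quasi-likelihood models per comparison to genes with CPM above 1 in at least 5 libraries, with Benjamini-Hochberg adjustment (threshold 0.05). Standard errors were derived from that test, as the absolute log2 fold change divided by the square root of its F statistic. CPM values use TMM factors over all 20 libraries, and log2 CPM adds a prior count of 2. Exact permutation tests used all 252 splits. Alternatives were DESeq2 1.42.0, the likelihood ratio test, other filters and scaling, a replicate block and each library left out. Per-kilobase levels use merged GENCODE vM21 exons.

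The members and lists were chosen with earlier results of these data known. Named in each library are 8 defining members, those with the smallest p per comparison, and any called. For list genes outside the members, those called between genotypes or the 2 with the smallest p between regions are named, and Myl9, Slc6a13, Ephb4, Notch3 and Col3a1 were picked after their values were seen. The pairing was checked: in control mice the same-numbered libraries of the regions deviated together (r of 0.111 to 0.316 for all 5 pairs over 13788 genes), so the block was read there. In cTKO mice pairs 1 to 3 had r of 0.302 to 0.37 and pairs 4 and 5 had -0.044 and -0.079, and the highest r, 0.577, joined neocortex library 5 and hippocampus library 4, the libraries with embryonic globins. The methods say that both regions came from the same 10 mice, but not that a number marks a mouse. P-values measure the spread between these libraries, and floors cover counting error only. The fitting code was tested on simulated data.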

Additional observations from a re-analysis of the deposited data

Results flagged for a closer look

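In 7 of 140 groups of 5 libraries, 1 per member, genotype and region, a single library stood far from the other 4 by Dixon's criterion, and chance gives about 1 in 20. Tagln was at 6.34 CPM in control hippocampus library 5, against 20.6 to 29.1 CPM in the other 4. Rgs5 and Abcc9 were both low in cTKO hippocampus library 2, at 34.4 CPM (others 46.6 to 51.7 CPM) and 5.23 CPM (others 9.81 to 11.98 CPM), the library that was the lowest of its group for 16 of 27 endothelial genes. Slc2a1 was at 186 CPM in cTKO neocortex library 3, against 112 to 123 CPM. Eng was at 37.1 CPM in control neocortex library 5 (others 29.5 to 31.3 CPM), Abcb1a at 32.8 CPM in cTKO neocortex library 4 (others 37.4 to 39.2 CPM) and Abcg2 at 17.2 CPM in cTKO neocortex library 1 (others 15.2 to 15.6 CPM).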

How the results depend on the processing

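The count of members called between the genotypes in the hippocampus, 0, became 1 with DESeq2 and 1 with the likelihood ratio test (Myh11, adjusted p = 0.0145 and 0.0238), 0 to 3 when each library was left out, and 3 without cTKO library 4 and control library 5 together, an alternative added after the data were seen. In the interaction the count of 0 became 0 to 1 when each library was left out. In the neocortex it was 0 in all 17 alternatives. The counts of 19 (region in controls) and 17 (region in cTKO) ran from 16 to 22 and from 14 to 20. The shares of all genes called by DESeq2, by the likelihood ratio test and in the alternative fits of the regions are not given here. The endothelial median kept its sign in all alternatives of the hippocampus and region comparisons, and in the neocortex it ran from -0.033 to 0.014. The mural median turned sign in some alternatives between the genotypes in the neocortex (-0.024 to 0.165) and between the regions of controls (-0.018 to 0.261), and the mural list level in controls, 0.137, was -0.0083 as a median over the list. The list level of the mural members between the regions of cTKO mice, a difference of -0.31, was -0.58 as a median over the list, and the cause was not tested.

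Some small log2 differences changed sign, and the cause was not tested. With each library left out, Acta2 between the genotypes in the neocortex ran from -0.047 (without cTKO library 5) to 0.336, Myh11 from -0.135 to 0.149, Cldn5 between the regions of controls from -0.086 (without hippocampus library 2) to 0.173, and Tagln between the regions of cTKO mice from -0.098 to 0.082. Tagln was also at 0.0016 with DESeq2, 0.001 with DESeq2 size factors, 0.0142 with no filter, 0.0186 with filterByExpr and 0.061 without both libraries that held embryonic globins.

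The replicate block changed calls in the region comparison of controls as given above. In the other comparisons not every pair correlated (3 of 5 pairs were over 0.1 in the neocortex and in cTKO mice, 1 in the hippocampus), and whether the numbers pair them is not known. The block gave 0 calls between the genotypes in either region, 0 in the interaction and 20 between the regions of cTKO mice, with Myh11 between the genotypes in the neocortex at -0.0023 and Tagln between the regions of cTKO mice at 0.0001. Of the 5 pairs, 3 correlated best with their own number in the neocortex and in cTKO mice, and 1 in the hippocampus. The lowest count of a member in any library was 63 (Anpep), and 5 libraries a group limit what small differences can show.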
